A study of Solanum lycopersicum with 29 samples.

Results

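The genes described here act at the last steps of ethylene signalling. They are 8 listed tomato genes out of the 35092 in the count table: the EIN3-like transcription factors EIL1 (Solyc06g073720), EIL2 (Solyc01g009170), EIL3 (Solyc01g096810) and EIL4 (Solyc06g073730), the EBF F-box proteins EBF1 (Solyc12g009560) and EBF2 (Solyc07g008250), and the ethylene output genes E4 (Solyc03g111720) and E8 (Solyc09g089580). They were taken from a list of identifiers, not by a rule on their values, and were matched after removal of the version suffix. The list was made with earlier results of these data known. The RNA came from anthers of cv. Micro-Tom, 6 anthers pooled per library, and was sequenced as poly(A) RNA in 29 libraries. The compared groups were wild-type plants, the ethylene-insensitive mutant Never ripe, 35S::nahG, in which the 35S promoter, active throughout the plant, drives a bacterial gene whose enzyme degrades salicylic acid, and 35S::asCCD7, a line with an antisense construct against CCD7, a gene of strigolactone biosynthesis, behind the same promoter. Each line was grown in control temperature (CT, 25°C by day and 19°C by night, 50% relative humidity) or moved at flowering to long-term mild heat (LTMH, 34°C and 28°C, 68% relative humidity) and sampled after 8 days. For wild-type and 35S::nahG, the paper describes anthers collected when their microspores were polarized. CT had 4 libraries of each line. LTMH had 3 libraries of wild-type (replicates 2, 3 and 4), 3 of Never ripe (replicates 1, 3 and 4), 3 of 35S::nahG (replicates 2, 3 and 4) and 4 of 35S::asCCD7. Each mutant or transgenic state was represented by 1 line, and 35S::nahG had been introgressed into Micro-Tom from other material, so that the named locus and other differences of a line cannot be told apart. Nothing in the labels says whether libraries of a group came from separate plants, and p-values measure the spread between these libraries.

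In plants, ethylene receptors repress the pathway when no ethylene is bound. Binding releases this repression, the EIN2 protein passes the signal on, and EIN3-like factors accumulate and switch on ethylene-responsive genes. EBF proteins are the F-box subunits that mark EIN3-like factors for degradation, and EBF genes are themselves targets of EIN3-like factors, which makes a negative feedback loop. The Never ripe mutation lies in an ethylene receptor and makes the plant ethylene-insensitive. E4 and E8 are known from ripening tomato fruit, where ethylene raises their transcripts. E4 encodes a methionine sulfoxide reductase and E8 a dioxygenase related to the enzyme of the final step of ethylene synthesis. The names were checked against the RefSeq table of assembly SLM_r2.1, which lists no Solyc identifiers, so that only the chromosome could be compared. It was the same for EIL1 to EIL4, EBF1 and E4 (as MSRA). The gene that RefSeq calls EBF2 is on chromosome 8, while the identifier listed here as EBF2 is on chromosome 7. The RefSeq gene with the symbol E8 is on chromosome 3, while the identifier listed here as E8 is on chromosome 9, where another RefSeq gene carries E8 among its synonyms. EBF2 and E8 below are always Solyc07g008250 and Solyc09g089580.

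Depth ranged from 32273189 to 42353956 counted reads per library (median 34474482), and the 10 most abundant genes took 5.68% to 12.1% of them. Correlations of log2 levels with the rest of the own group were between 0.975 and 0.993. Of the 29 libraries, 3 resembled another group more than their own: Never ripe LTMH replicate 4 was nearest to 35S::nahG LTMH, 35S::asCCD7 CT replicate 4 to 35S::asCCD7 LTMH, and 35S::asCCD7 LTMH replicate 3 to Never ripe LTMH. DEG calls that rest on them are given with and without these libraries. The number of the 7 genes called was the same without them in every comparison they enter. Anther identity was checked with 5 listed stamen identifiers, whose summed level was 2436 to 4910 counts per 1e6 reads (CPM, scaled by TMM) over all libraries. It was 2436 to 2695 CPM in 35S::nahG CT and at least 3250 CPM in every other library. Of 5 identifiers listed for other floral organs, fruit and late pollen, 4 were in the table, and their sum was 1.52 to 23.7 CPM. Groups were compared on the counts with edgeR (quasi-likelihood F-test) over 21637 tested genes. Differentially expressed genes (DEGs) had to change by 1.5-fold or more and to have an adjusted p (Benjamini-Hochberg) below 0.05. Fold changes below are log2 differences with their standard error (SE).

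Of the 8 genes, 7 passed the filter on low counts and had reads in all 29 libraries. E4 had 0 reads in all 29. At the median depth, 3 reads, the limit that a count of 0 allows, correspond to 0.0870 CPM, so E4 was not detectable at this depth, and no comparison was made for it. Levels of different genes were compared as FPKM, which is per length of the gene. Mean FPKM over the 29 libraries was 33.8 for EIL1, 33.4 for EIL3, 23.6 for EIL4, 20.8 for EIL2, 19.0 for EBF1, 17.0 for EBF2 and 15.3 for E8. EIL1, EIL3 and EIL4 stood above both EBF genes in these means. The mean of EIL2 was carried by 35S::nahG CT, at 55.6 FPKM, and EIL2 was below EBF1 in 6 and below EBF2 in 5 of the 8 groups.

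The genes fell into a steady and a variable class. The highest library exceeded the lowest by a factor of 1.48 for EBF1, 1.58 for EIL3, 1.60 for EIL1 and 2.17 for EIL4. It did so by a factor of 4.44 for E8, 5.23 for EBF2 and 6.69 for EIL2. These 3 genes gave all 14 DEG calls among the 105 combinations of a tested gene with one of 15 comparisons. Of all tested genes, 0.319% to 27.5% were called in these comparisons, given with each result below. Each of the 3 genes had its own pattern: EBF2 was lowest in wild-type, EIL2 was high in 35S::nahG CT, and E8 was low in Never ripe CT.

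**Figure D1:**
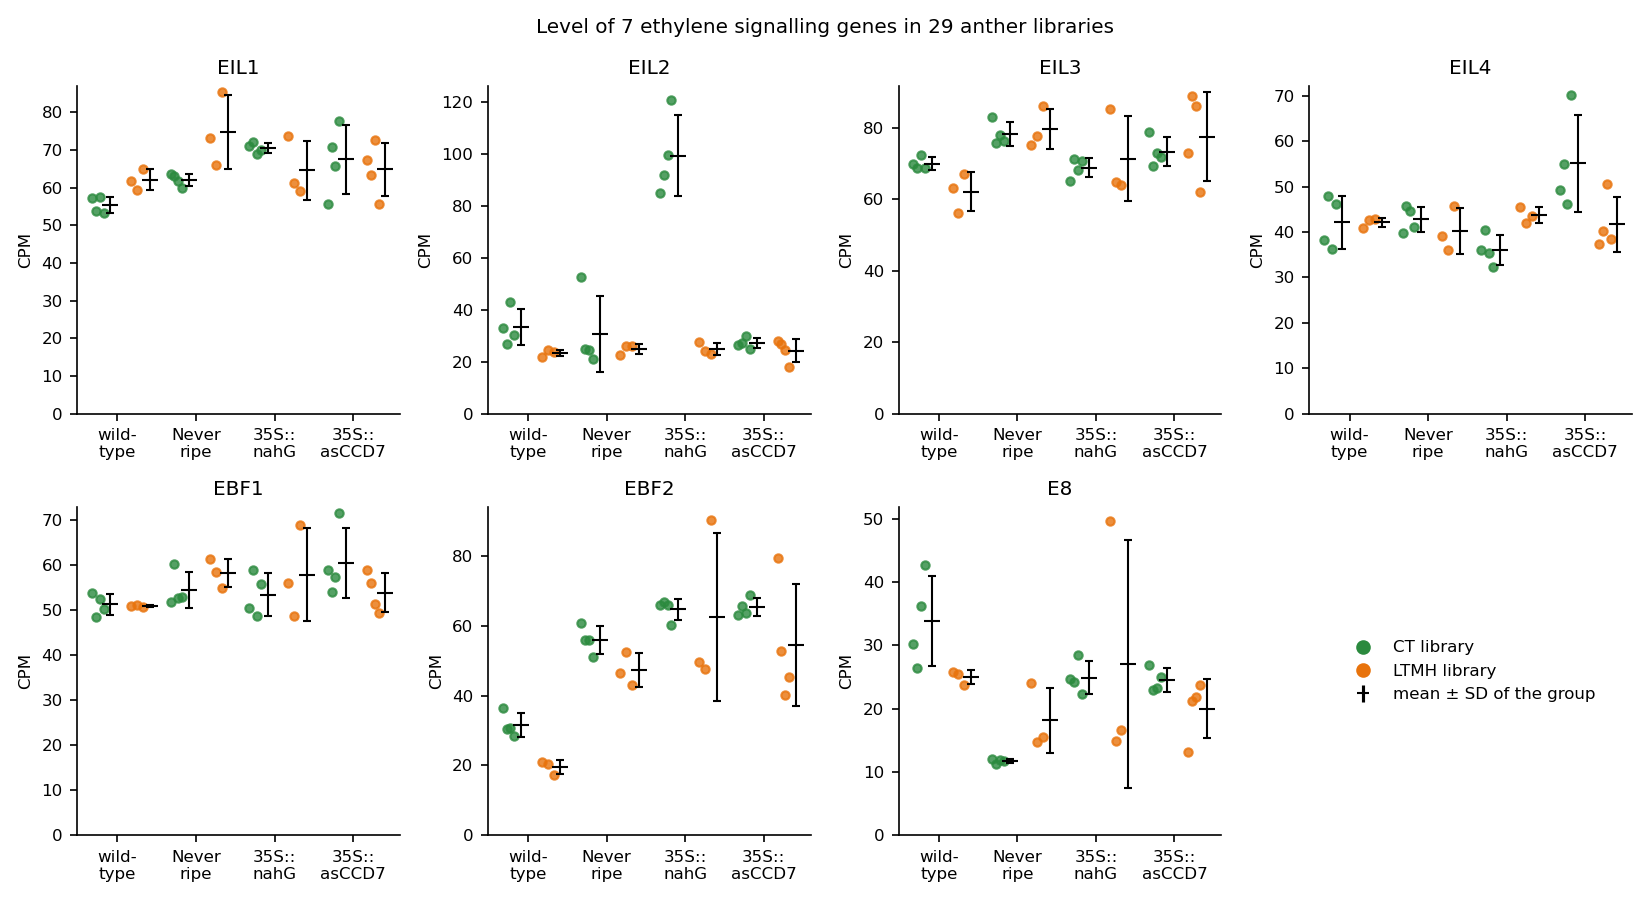
Level of each of the 7 detected genes (vertical axis, CPM from 0) in every library of the 4 lines, with CT in green and LTMH in orange; black bars give the group mean ± SD. EBF2 is between 17.3 and 36.4 CPM in the wild-type libraries and at 40.3 CPM or more in all others, EIL2 is at 84.9 CPM or more in 35S::nahG CT alone, and E8 is at 11.2 to 12.1 CPM in Never ripe CT.

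EBF2, one of the F-box genes, was lower in wild-type anthers than in the anthers of each of the other lines, at both temperatures. In wild-type CT, EBF2 stood at 36.4, 30.4, 30.6 and 28.4 CPM in replicates 1 to 4. In wild-type LTMH it stood at 20.9, 20.4 and 17.3 CPM. These 7 libraries held the 7 lowest values of all 29, and the LTMH libraries lay below every CT library. Libraries of the temperatures were likewise apart for 44.0% of all tested genes in wild-type. In bulk anthers, fewer cells that express a gene and less of its RNA per cell cannot be told apart.

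The other lines lay well above this range in CT. Never ripe CT had EBF2 at 60.9, 56.0, 56.1 and 51.0 CPM. 35S::nahG CT had 65.9, 67.1, 66.1 and 60.4 CPM. 35S::asCCD7 CT had 63.2, 65.8, 63.9 and 69.0 CPM. Libraries of one line were close to each other, and the ranges of 35S::nahG and 35S::asCCD7 overlapped, as did those of 35S::nahG and Never ripe.

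In LTMH the spread was wider. Never ripe LTMH had EBF2 at 46.4, 52.7 and 42.9 CPM. 35S::nahG LTMH had 49.6, 47.6 and 90.4 CPM, where replicate 4 stood apart as the highest EBF2 value of all libraries. 35S::asCCD7 LTMH had 79.6, 52.9, 40.3 and 45.5 CPM. The lowest of these 10 libraries was still above the highest wild-type library of either temperature, and the 3 lines overlapped each other.

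In CT, EBF2 was higher than in wild-type by 0.84 log2 (SE 0.0843, 1.79-fold, edgeR adjusted p = 0.000109) in Never ripe, by 1.05 (SE 0.0798, 2.08-fold, adjusted p = 2.19e-05) in 35S::nahG and by 1.05 (SE 0.0778, 2.07-fold, adjusted p = 0.000171) in 35S::asCCD7. In LTMH the differences were 1.27 (SE 0.106, 2.42-fold, adjusted p = 0.00292), 1.68 (SE 0.244, 3.21-fold, adjusted p = 0.0031) and 1.51 (SE 0.224, 2.84-fold, adjusted p = 0.00854) in the same order. All 6 were DEG calls. The 3 lines were compared with the same wild-type libraries at each temperature, so these values are not independent of each other. Without the 3 libraries that resembled another group, EBF2 was higher by 1.34 (adjusted p = 0.000954) in Never ripe LTMH, by 1.02 (adjusted p = 0.000474) in 35S::asCCD7 CT and by 1.60 (adjusted p = 0.00436) in 35S::asCCD7 LTMH.

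Against all tested genes, DEGs higher than in wild-type in CT were 6.15% for Never ripe, 7.85% for 35S::nahG and 2.17% for 35S::asCCD7. The same shares in LTMH were 2.44%, 4.59% and 3.66%. Of the 7 tested members, EBF2 was the single gene called in Never ripe LTMH (4.34% of all tested genes called in either direction), 35S::nahG LTMH (9.41%), 35S::asCCD7 CT (3.81%) and 35S::asCCD7 LTMH (5.53%). In Never ripe CT, 2 of 7 were called (10.5%), EBF2 and E8, and in 35S::nahG CT 2 of 7 (16.4%), EBF2 and EIL2. EBF2 libraries did not overlap with wild-type in any of the 6 comparisons, where the share of all tested genes without overlap was 28.5%, 35.1% and 16.5% in CT and 33.5%, 43.2% and 28.4% in LTMH, for the lines in the same order.

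**Figure D2:**
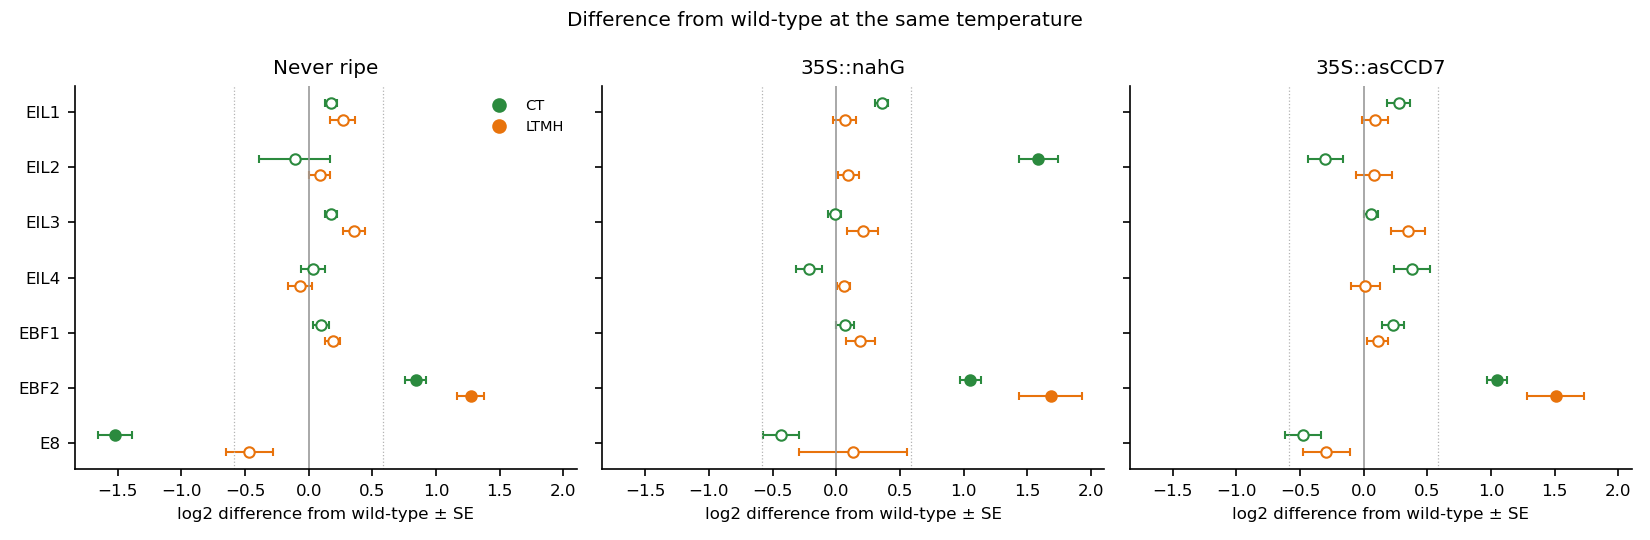
Log2 difference of each gene from wild-type at the same temperature (horizontal axis), in 1 panel for each line, with CT in green and LTMH in orange; bars give the SE, filled points are DEG calls and dotted lines mark a fold change of 1.5. EBF2 is filled to the right of 0 in all 3 panels at both temperatures, from 0.84 to 1.68, while EBF1 stays between 0.07 and 0.23 and is open throughout.

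Levels also differed around EBF2 on the chromosome. Among the 20 tested genes with the nearest identifiers, 10 on each side, DEGs in the same direction as EBF2 numbered 4 in Never ripe CT, 6 in 35S::nahG CT and 4 in 35S::asCCD7 CT. In LTMH they numbered 2, 3 and 4. Of all tested genes, 6.15%, 7.85% and 2.17% were called higher in CT, for the lines in the same order. In LTMH these shares were 2.44%, 4.59% and 3.66%. In the opposite direction there was 1 in 35S::nahG CT and none in the other comparisons. The part of the neighbourhood in the EBF2 difference was not tested. Solyc05g012020, the identifier listed as a marker of ripening fruit, also separated wild-type from the rest, at 1.43 to 2.73 CPM in the wild-type libraries and 3.55 to 9.46 CPM in the others. Its part in the result was not tested either.

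The second F-box gene, EBF1, did not show this pattern at the size of a DEG call. Its group means lay between 51.0 CPM in wild-type LTMH and 60.5 CPM in 35S::asCCD7 CT, neighbours in the order of group means overlapped throughout, and no comparison called it. Wild-type was lowest for EBF1 too, with CT at 51.3 CPM next above LTMH. EBF1 libraries did not overlap with wild-type in 35S::asCCD7 CT (16.5% of all tested genes) and Never ripe LTMH (33.5%), and overlapped in the other comparisons with wild-type. Without Never ripe LTMH replicate 4, EBF1 was 0.23 higher in Never ripe than in wild-type in LTMH and passed the adjusted p alone (edgeR adjusted p = 0.0314, beside 0.19 and 0.0916 with that library). The differences of EBF1 from wild-type ranged from 0.07 (SE 0.0714) in 35S::nahG CT to 0.23 (SE 0.0864, edgeR adjusted p = 0.141) in 35S::asCCD7 CT. Over the 29 libraries the log2 levels of EBF1 and EBF2 had a Pearson r of 0.54 and a Spearman rho of 0.54, a description across libraries that share groups.

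Counted within a library, where depth cancels, the balance of the F-box transcripts shifted. Wild-type CT had 67.5, 62.7, 58.4 and 56.4 EBF2 reads per 100 EBF1 reads, and wild-type LTMH had 41.0, 40.0 and 34.0. Never ripe ranged from 92.7 to 117 in CT and from 75.7 to 90.0 in LTMH. 35S::nahG ranged from 108 to 136 in CT and from 88.5 to 131 in LTMH, and 35S::asCCD7 from 96.2 to 122 and from 78.4 to 135. EBF1 gave more reads than EBF2 in every wild-type library, but also in all Never ripe LTMH libraries and in some libraries of each other line. No library of another line fell into the wild-type range.

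**Figure D3:**
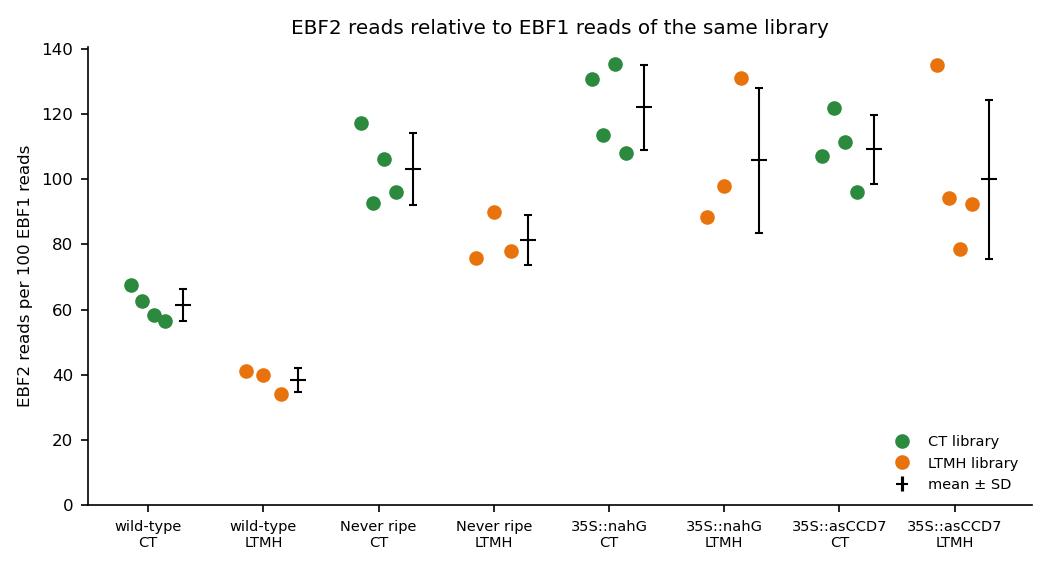
EBF2 reads per 100 EBF1 reads of the same library (vertical axis from 0) in the 8 groups, with CT in green, LTMH in orange and black bars for the group mean ± SD. The 7 wild-type libraries lie between 34.0 and 67.5, and the 22 libraries of the other lines between 75.7 and 136.

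In wild-type, EBF2 was lower in LTMH than in CT (log2 difference −0.69, SE 0.103, 0.619-fold, edgeR adjusted p = 0.00156). This was the single DEG call among the 7 genes there, where 17.2% of all tested genes were called and 8.43% were called lower. In the other lines the LTMH difference of EBF2 was −0.23 (SE 0.0867, adjusted p = 0.0979) in Never ripe, −0.05 (SE 0.196) in 35S::nahG and −0.27 (SE 0.183) in 35S::asCCD7, and CT and LTMH libraries overlapped in all 3. Without the libraries nearest to another group, the difference was −0.17 (adjusted p = 0.195) in Never ripe and −0.12 (adjusted p = 0.701) in 35S::asCCD7. The response itself was not shown to differ from that of wild-type. The difference between the responses was 0.45 (SE 0.139, adjusted p = 0.063) for Never ripe, 0.64 (SE 0.251, adjusted p = 0.0964) for 35S::nahG and 0.43 (SE 0.24, adjusted p = 0.334) for 35S::asCCD7. For 35S::nahG, DESeq2 gave 0.64 with an adjusted p of 0.0485, and leaving out 35S::nahG LTMH replicate 3 gave 0.80 with an adjusted p of 0.041. Without the library of Never ripe nearest to another group, its value was 0.51 (adjusted p = 0.0326), under the fold threshold, and that of 35S::asCCD7 was 0.59 (adjusted p = 0.142).

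EIL2, an EIN3-like factor, was high in a single group. In 35S::nahG CT it stood at 84.9, 91.9, 99.6 and 121 CPM, a mean of 99.3 ± 15.6 (SD, n = 4). In 35S::nahG LTMH it stood at 27.5, 24.1 and 22.9 CPM. The 4 CT libraries lay above every other library of the series, and the LTMH libraries lay within the range of the other lines. Between temperatures, 55.4% of all tested genes had no overlap in 35S::nahG, and 35.1% had none between 35S::nahG and wild-type in CT.

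In wild-type CT, EIL2 stood at 33.1, 26.8, 43.1 and 30.1 CPM, and in wild-type LTMH at 21.9, 24.4 and 23.8 CPM. In Never ripe CT it stood at 52.5, 25.0, 24.4 and 21.0 CPM, with replicate 1 far above the rest, and in Never ripe LTMH at 22.5, 26.0 and 26.0 CPM. In 35S::asCCD7 it ranged from 25.0 to 29.9 CPM in CT and from 18.1 to 27.8 CPM in LTMH. After 35S::nahG CT, each group in the order of means overlapped the next.

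In CT, EIL2 was higher in 35S::nahG than in wild-type by 1.59 log2 (SE 0.155, 3.01-fold, edgeR adjusted p = 9.52e-05). Within 35S::nahG it was lower in LTMH than in CT (log2 difference −1.99, SE 0.126, 0.251-fold, adjusted p = 2.23e-06), where 1 of the 7 genes and 27.5% of all tested genes were called. In LTMH the lines differed by 0.10 (SE 0.0832, adjusted p = 0.445). The response to LTMH differed from that of wild-type by −1.48 (SE 0.21, adjusted p = 0.000645). EIL2 was the single call of the 7 genes in this test, which called 10.1% of all tested genes.

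Smaller differences of EIL2 depended on single libraries. In wild-type it was lower in LTMH than in CT (log2 difference −0.52, SE 0.149, edgeR adjusted p = 0.0274), under the fold threshold, and without wild-type CT replicate 2 the value was −0.61 and a DEG call (adjusted p = 0.00873). Never ripe CT lay below the mean of the other 3 lines in CT (log2 difference −0.55, SE 0.169, adjusted p = 0.0166). Without Never ripe CT replicate 1 the value was −0.93 (adjusted p = 8e-06). That mean includes 35S::nahG CT, at 99.3 CPM. Against wild-type CT alone, EIL2 in Never ripe CT differed by −0.11 (SE 0.278, edgeR adjusted p = 0.808), and the libraries overlapped.

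The tapetum, the cell layer that feeds the developing pollen and then degenerates, was followed with 4 marker genes named by the study: TDF1 (Solyc03g059200), CYP704B1 (Solyc01g010900), CYP703A2 (Solyc10g009390) and WBC27 (Solyc07g065780). Their summed level was 3986 to 6057 CPM in 35S::nahG CT and 5.53 to 7.05 CPM in 35S::nahG LTMH. It ranged from 174 to 1931 CPM in wild-type CT, from 4.18 to 166 CPM in wild-type LTMH, from 43.1 to 1884 CPM in Never ripe CT and from 3.91 to 11.4 CPM in Never ripe LTMH. In 35S::asCCD7 it was 1.51 to 215 CPM in CT and 3.33 to 161 CPM in LTMH. None of the 4 genes was at 0 in every library of a group. In 35S::nahG CT the sum was carried by CYP703A2 (2057 to 3382 CPM) and CYP704B1 (1662 to 2493 CPM), and WBC27 was also highest there, at 157 to 288 CPM. TDF1 was not, at 0.606 to 1.66 CPM in 35S::nahG CT and 0.320 to 4.26 CPM in wild-type CT, with group means of 1.01 and 2.45 CPM.

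EIL2 moved with the sum of these markers. The 6 libraries with the highest marker sum were also the 6 with the highest EIL2: the 4 of 35S::nahG CT, wild-type CT replicate 3 (1931 CPM for the markers, 43.1 CPM for EIL2) and Never ripe CT replicate 1 (1884 and 52.5 CPM). On the log2 scale, Pearson r between EIL2 and the sum was 0.79 and Spearman rho 0.68 over 29 libraries, and 0.64 and 0.51 over the 25 libraries without 35S::nahG CT. The libraries share groups and temperatures, and the values are a description. In the 21 libraries with a sum of 289 CPM or less, EIL2 stayed between 18.1 and 29.9 CPM. The stamen sum was lowest in 35S::nahG CT, the group where EIL2 was highest. The part of the tapetum, of the stamen identifiers and of anther stage in the EIL2 differences was not tested.

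**Figure D4:**
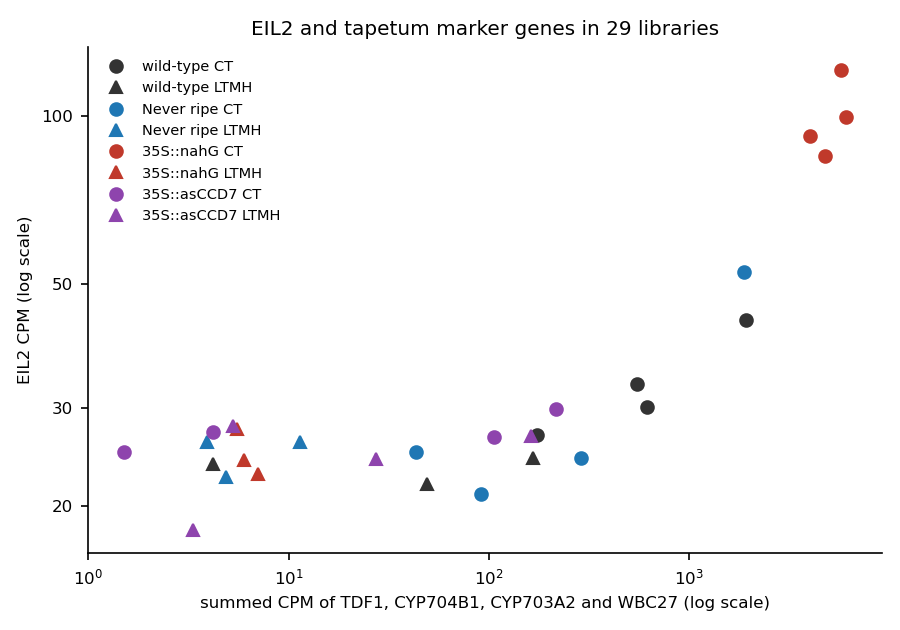
EIL2 level (vertical log axis, CPM) against the summed level of the 4 tapetum marker genes (horizontal log axis, CPM) in 29 libraries, coloured by line, with circles for CT and triangles for LTMH. The 35S::nahG CT libraries are at the upper right, followed by Never ripe CT replicate 1 and wild-type CT replicate 3, and the LTMH libraries lie between 18.1 and 27.8 CPM of EIL2.

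The other EIN3-like factors changed little. EIL1 group means ran from 55.5 CPM in wild-type CT to 74.9 CPM in Never ripe LTMH, EIL3 means from 62.2 CPM in wild-type LTMH to 79.7 CPM in Never ripe LTMH, and EIL4 means from 36.1 CPM in 35S::nahG CT to 55.2 CPM in 35S::asCCD7 CT. For EIL1, wild-type CT (53.3 to 57.4 CPM) did not overlap with Never ripe CT, the next group in the order of means. Neither did 28.5% of all tested genes between these groups, and all other neighbours of EIL1 overlapped. For EIL4, 35S::asCCD7 CT (46.1 to 70.3 CPM) did not overlap with 35S::nahG LTMH, the next group, and all other neighbours overlapped. The share of all tested genes without overlap was not counted for this pair. For EIL3, every neighbour overlapped. Groups further apart in this order could still separate. EIL1 and EIL3 libraries did not overlap between temperatures in wild-type (44.0% of all tested genes). They also did not overlap between Never ripe and wild-type in CT (28.5%) or LTMH (33.5%). EIL1 was further apart between temperatures in Never ripe (33.6%) and between 35S::nahG and wild-type in CT (35.1%). EIL4 was apart between temperatures in 35S::nahG (55.4%).

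No comparison called EIL1, EIL3 or EIL4 a DEG, and 4 differences passed the adjusted p alone. EIL1 was higher than in wild-type CT by 0.36 (SE 0.0499, 1.28-fold, edgeR adjusted p = 0.000644) in 35S::nahG CT and by 0.17 (SE 0.0469, adjusted p = 0.0247) in Never ripe CT. EIL3 was higher by 0.17 (SE 0.0468, adjusted p = 0.0244) in Never ripe CT. EIL4 was higher in LTMH than in CT by 0.28 (SE 0.0768, adjusted p = 0.013) in 35S::nahG. In 35S::asCCD7 its difference was −0.40 (SE 0.152, adjusted p = 0.111), and −0.38 without the libraries nearest to another group, where it passed the adjusted p alone (0.0356). Of all tested genes, 25.7% passed the adjusted p alone in Never ripe CT, 35.0% in 35S::nahG CT, 51.3% between the temperatures in 35S::nahG and 35.2% between the temperatures in wild-type, where EIL2 and E8 passed it beside EBF2.

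EIL1 and EIL4 have adjacent identifiers on chromosome 6, and their levels varied largely apart, with a Pearson r of 0.16 and a Spearman rho of 0.00 over the 29 libraries. EIL4 and EIL2 had a Pearson r of −0.47 and a Spearman rho of −0.30. The library kit did not mark strand, so reads of a gene and of an overlapping antisense transcript cannot be told apart.

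E8, the output gene that was detected, was lowest in Never ripe CT. It stood there at 12.1, 11.2, 11.9 and 11.7 CPM, a mean of 11.7 ± 0.378 (SD, n = 4). In wild-type CT it stood at 30.2, 26.5, 36.2 and 42.6 CPM, in 35S::nahG CT at 24.7, 24.2, 28.4 and 22.2 CPM and in 35S::asCCD7 CT at 26.9, 22.9, 23.3 and 25.0 CPM. The Never ripe CT libraries were close together and lay below every other library of the series, while the other lines overlapped in CT. Between Never ripe and wild-type in CT, 28.5% of all tested genes had no overlap.

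E8 was lower in Never ripe than in wild-type in CT (log2 difference −1.52, SE 0.134, 0.348-fold, edgeR adjusted p = 4.6e-05), where 4.39% of all tested genes were called lower. Against the mean of the other 3 lines in CT the value was −1.23 (SE 0.227, 0.427-fold, adjusted p = 0.0002), the single call of the 7 genes in a test that called 12.1% of all tested genes. Without the library of 35S::asCCD7 CT nearest to another group it was −1.23 (adjusted p = 0.000394). EBF2 did not separate Never ripe from the other lines in this way, at 0.13 (SE 0.138, adjusted p = 0.51). Smaller differences of E8 from wild-type CT were −0.44 (SE 0.142, adjusted p = 0.0383) in 35S::nahG and −0.48 (SE 0.139, adjusted p = 0.0733) in 35S::asCCD7, both under the fold threshold. Among the 20 tested genes nearest to E8, 2 were called lower and 6 higher in Never ripe CT than in wild-type CT. Of all tested genes, 4.39% were called lower and 6.15% higher there. The same neighbours also differed from wild-type CT in the other lines. In 35S::nahG CT 7 were called lower and 2 higher (8.55% and 7.85% of all tested genes). In 35S::asCCD7 CT 5 were called lower and 1 higher (1.64% and 2.17%). Solyc09g075440, listed as the receptor gene mutated in Never ripe, has an identifier on the same chromosome as E8. The part of this neighbourhood in the E8 difference was not tested.

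In LTMH the groups overlapped. Wild-type LTMH had E8 at 25.7, 25.5 and 23.7 CPM, and Never ripe LTMH at 24.1, 14.8 and 15.5 CPM. 35S::nahG LTMH had 49.7, 14.9 and 16.6 CPM, and 35S::asCCD7 LTMH had 13.2, 21.2, 21.8 and 23.8 CPM. Replicate 2 of 35S::nahG was the highest E8 value of all libraries, and the other 2 libraries of that group lay among the lowest. Never ripe LTMH replicate 1 lay in the wild-type range, and replicates 3 and 4 lay below it.

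The tests in LTMH followed these single libraries. Never ripe differed from wild-type by −0.47 (SE 0.185, edgeR adjusted p = 0.165), without Never ripe LTMH replicate 1 by −0.72 (adjusted p = 0.019), a DEG call, and without replicate 4, the library nearest to another group, by −0.36 (adjusted p = 0.221). 35S::nahG differed from wild-type by 0.13 (SE 0.423, adjusted p = 0.852), and without 35S::nahG LTMH replicate 2 by −0.66 (adjusted p = 0.00302), a DEG call in the other direction. 35S::asCCD7 differed by −0.29 (SE 0.183, adjusted p = 0.333), and without its library nearest to another group by −0.37 (adjusted p = 0.237). Against the mean of the other 3 lines, Never ripe LTMH gave −0.39 (SE 0.244, adjusted p = 0.432), and none of the 7 genes was called by edgeR in that test, which called 1.64% of all tested genes. At an unadjusted p under 0.05, EIL1 and EIL3 passed, and DESeq2 called none.

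Solyc10g007270, the identifier listed as a marker of late pollen, was at 13.5 CPM in 35S::nahG LTMH replicate 2, the library with the highest E8. It was at 19.6 CPM in Never ripe LTMH replicate 4 and at 2.64 CPM in 35S::asCCD7 LTMH replicate 3, both among the libraries nearest to another group, and at 0.294 CPM or less in the other 26. E8 was at 15.5 and 21.8 CPM in the latter pair. The part of late pollen in these values was not tested.

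Between temperatures, E8 was higher in LTMH in Never ripe, by 0.64 (SE 0.165, 1.56-fold, edgeR adjusted p = 0.0339), the single call of the 7 genes where 8.43% of all tested genes were called. The 7 libraries did not overlap, nor did those of 33.6% of all tested genes. This call rested on single libraries: the adjusted p was 0.0689, 0.0818, 0.0799 and 0.084 without Never ripe CT replicates 1, 2, 3 and 4, and without Never ripe LTMH replicate 1 the value was 0.38 (adjusted p = 0.027), under the fold threshold. Without Never ripe LTMH replicate 4, the library nearest to another group, it was 0.74 (adjusted p = 0.02). In wild-type the difference was −0.45 (SE 0.15, adjusted p = 0.0483), in 35S::nahG 0.13 (SE 0.366) and in 35S::asCCD7 −0.30 (SE 0.169).

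The response of E8 in Never ripe differed from that in wild-type by 1.07 (SE 0.242, edgeR adjusted p = 0.0133), again the single call of the 7 genes, in a test that called 5.81% of all tested genes. One fit over all 29 libraries gave 1.07 with an adjusted p of 0.106. Without Never ripe LTMH replicate 4 the value was 1.17 (adjusted p = 0.00787). The same test gave 0.57 (SE 0.454) for 35S::nahG and 0.15 (SE 0.243) for 35S::asCCD7. In 35S::asCCD7, edgeR called none of the 7 genes between temperatures (7.17% of all tested genes called) or for the difference of the response (0.319%). At an unadjusted p under 0.05, EIL4 passed in the first of these tests and no gene in the second. DESeq2 also called none in both tests.

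**Figure D5:**
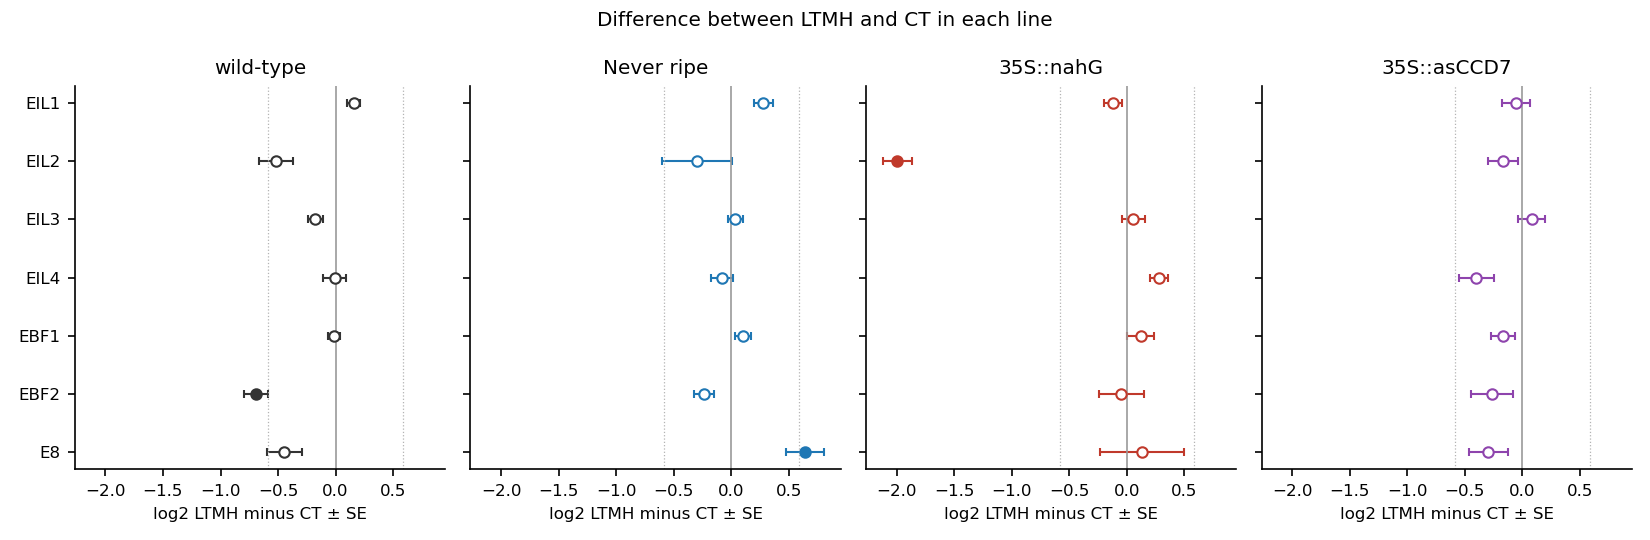
Log2 difference between LTMH and CT of each gene (horizontal axis), in 1 panel for each line; bars give the SE, filled points are DEG calls and dotted lines mark a fold change of 1.5. EBF2 is filled at −0.69 in wild-type, E8 at 0.64 in Never ripe and EIL2 at −1.99 in 35S::nahG, and no point is filled in 35S::asCCD7.

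Upstream of these genes, 9 listed identifiers for receptors, CTR1 and EIN2 all passed the filter. The study's tables annotate Solyc12g011330 and Solyc07g056580 as ethylene receptors and Solyc09g007870 as EIN2, and no comparison called these 3. Of the 9, edgeR called 1 higher in LTMH in wild-type (8.77% of all tested genes called higher; median of the list 0.10, of all tested genes −0.00). It called 1 higher and 2 lower in 35S::nahG (27.5% of all tested genes called in either direction; median −0.07, of all tested genes 0.01). In CT, 1 of 9 was higher than in wild-type in Never ripe (6.15% of all tested genes) and 1 of 9 in 35S::nahG (7.85%). These shares of the list are near those of all tested genes. In LTMH none was called in any line against wild-type, and at the adjusted p alone 1 was higher and 1 lower in 35S::nahG (24.8% of all tested genes). The summed level of the 9 ranged from 317 to 471 CPM.

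The 2 genes whose log2 levels were most like those of each member over the 29 libraries were listed as a description. Likeness was taken by Pearson r. For EBF2 they were Solyc07g009150 (r = 0.90, Spearman rho 0.62) and Solyc10g076900 (r = 0.89, rho 0.83). The study's tables annotate the first, also on chromosome 7, as a protein kinase superfamily protein and the second as a calcium-dependent protein kinase. For EIL2 they were Solyc01g111910 (rho 0.83) and Solyc06g073520 (rho 0.65), both with r = 0.97. For EIL4 they were Solyc10g078740 (r = 0.88) and Solyc06g054010 (r = 0.88, annotated as an inositol polyphosphate 5-phosphatase), and for EIL1 Solyc08g078380 (r = 0.79) and Solyc06g069580 (r = 0.77). For E8 they were Solyc05g009520 (r = 0.74) and Solyc12g035400 (r = 0.72), for EIL3 Solyc02g091430 (r = 0.74) and Solyc01g096620 (r = 0.68), and for EBF1 Solyc03g025585 and Solyc02g083120 (both r = 0.59). None of the 7 genes was among those nearest to another member.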

How the data were processed

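Anther RNA of 4 lines in CT and LTMH was analysed in 29 libraries, grouped by the labels. The authors aligned the reads with HISAT2 2.0.5 and counted them per gene with featureCounts 1.5.0-p3 (tomato genome SL3.0, annotation ITAG3.2). These counts were used as deposited, without normalization. The FPKM values were computed by the authors from the counts and gene lengths. Their divisor for each library was 0.911 to 1.15 times the total count, and they were used only to set levels of different genes side by side.

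The filter filterByExpr of edgeR 4.0.16 (R 4.3.3; minimum count 10, 8 groups) left 21637 genes. After TMM scaling they were tested two-sided (glmQLFit, glmQLFTest), and p-values were adjusted over all of them by Benjamini-Hochberg. Each pair of groups was fitted alone, the difference of responses on the 4 groups of both lines, and Never ripe against the mean of the other 3 lines on all libraries. SE is the log2 difference divided by the square root of F. CPM is on TMM-scaled library sizes. DESeq2 1.42.0, RLE scaling, other filters, 1 fit of all libraries, a replicate block and leaving out libraries were alternatives. Leaving out the 3 libraries nearest to another group was added after the data were seen. The tests were checked on simulated data. None of 39 library pairs within groups was identical.

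The 8 genes, their values and the 2 genes nearest to each of 7 (Pearson r of log2 CPM, prior count 2) were the named genes. The members and lists were chosen with earlier results of these data known. Lists of further EIN3-like, EBF and ERF family genes were not used here, since the annotation they need was not at hand, and no coordinates or sequences are given for the same reason. Figures were drawn with matplotlib 3.10.9.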

Additional observations from a re-analysis of the deposited data

Results flagged for a closer look

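In groups of 4 libraries, a single library stood apart from the other 3 by Dixon's criterion in 3 of 35 cases, where chance gives about 1 in 20. EIL2 was at 52.5 CPM in Never ripe CT replicate 1 and at 21.0 to 25.0 CPM in the other 3 libraries of that group. EBF1 was at 60.4 CPM in Never ripe CT replicate 2 and at 51.9 to 53.1 CPM in the others. EBF2 was at 60.4 CPM in 35S::nahG CT replicate 4 and at 65.9 to 67.1 CPM in the others.

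The response to LTMH differed from that of wild-type, by the test of the difference itself, for E8 in Never ripe (1.07 log2, edgeR adjusted p = 0.0133) and for EIL2 in 35S::nahG (−1.48, adjusted p = 0.000645). The E8 difference was not called in the fit of all libraries or with the replicate number as a block.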

How the results depend on the processing

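Of 1876 recomputed log2 differences of the 7 genes, 1810 kept their direction and their side of the threshold, 9 fell below it, 5 rose above it and 52 changed sign, all but 3 of these within 0.15 of 0. EBF2 stayed a DEG call against wild-type in all 82 alternatives of the 6 comparisons (0.786 to 1.85, highest edgeR or DESeq2 adjusted p 0.0498), and in all 13 for LTMH in wild-type (−0.744 to −0.611). EIL2 stayed one in 35S::nahG CT in all 14 (1.48 to 1.73), and E8 in Never ripe CT in all 14 (−1.63 to −1.40). Where values moved, the cause was not tested. E4 alone among the members had no reads in any library, and the reason was not tested.

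Replicate numbers were not taken to pair the libraries. Correlations of deviations between same-numbered libraries ran from −0.380 to 0.390, and no comparison with 3 or more pairs had all over 0.1. So few pairs cannot exclude a batch shared by libraries of the same number. With the replicate number as a block, DEGs were 688 for LTMH in Never ripe (1824 without), 818 in 35S::asCCD7 (1551), 90 for Never ripe LTMH against wild-type (938), 691 for 35S::asCCD7 LTMH against wild-type (1196) and 11 for the 35S::asCCD7 response (69), where response means the LTMH difference of a line minus that of wild-type. The members called fell to 0 for LTMH in Never ripe (E8 0.58, adjusted p = 0.113) and 0 for its response (E8 0.96, adjusted p = 0.056). Signs changed with the block for EBF1 in wild-type LTMH (0.0113), E8 in 35S::nahG LTMH against CT (−0.0930) and against wild-type (−0.0937), EIL2 in 35S::asCCD7 LTMH against wild-type (−0.0056) and EIL2 in Never ripe LTMH against the other lines (−0.0055).

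DESeq2 called 1252 genes for 35S::asCCD7 CT, 1865 for 35S::asCCD7 LTMH and 637 for its response, and 2 members (EIL2 and EBF2) for the 35S::nahG response. One fit of all libraries called 2714 genes for LTMH in 35S::asCCD7, 1297 and 2260 for it against wild-type in CT and LTMH, 675 for its response, and 0 members for LTMH in Never ripe (E8 adjusted p = 0.111) and 0 for its response. EIL4 in 35S::asCCD7 LTMH against wild-type (0.01) was −0.0070 with DESeq2, −0.0070 with RLE, −0.0080 without a filter and −0.0153 in the fit of all libraries. Without the 3 libraries nearest to another group, chosen after seeing the data, DEGs were 1498 for Never ripe LTMH, 2085 for 35S::asCCD7 LTMH, 791 for the 35S::asCCD7 response and 548 for Never ripe LTMH against the other lines. Signs then changed for EIL3 in Never ripe LTMH against CT (−0.03), EIL4 in 35S::asCCD7 LTMH (−0.12), and, in Never ripe against the other lines, EIL4 (0.0119) and EBF1 (0.0163) in CT and EIL2 in LTMH (−0.0028).

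With single libraries left out, DEGs ranged from 1189 to 1875 for LTMH in Never ripe, 746 to 1921 in 35S::asCCD7, 295 to 1498 for Never ripe LTMH against wild-type (highest without Never ripe LTMH replicate 4), 507 to 937 for 35S::asCCD7 CT, 339 to 2085 for 35S::asCCD7 LTMH and 4 to 977 for its response (both highest without 35S::asCCD7 LTMH replicate 3). Members called ranged from 0 to 1 for LTMH in Never ripe. They ranged from 1 to 2 for LTMH in wild-type, LTMH in 35S::nahG, Never ripe LTMH, 35S::nahG LTMH, the 35S::nahG response, and Never ripe CT against the other lines. Differences that crossed 0, between LTMH and CT, were EBF1 (−0.0393 to 0.0138) and EIL4 (−0.0669 to 0.0622) in wild-type, EIL2 (−0.448 to 0.0838) and EIL3 (−0.0253 to 0.0726) in Never ripe, EIL3 (−0.0921 to 0.13), EBF2 (−0.409 to 0.112), E8 (−0.656 to 0.421) and EBF1 (−0.0242 to 0.228) in 35S::nahG and EIL1 (−0.141 to 0.0149) in 35S::asCCD7. Against wild-type they were EIL4 (−0.0451 to 0.091) and EIL2 (−0.496 to 0.0362) in Never ripe CT, EIL4 in Never ripe LTMH (−0.167 to 0.0046), EIL3 in 35S::nahG CT (−0.0372 to 0.0019), EIL1 (−0.0372 to 0.126) and E8 (−0.657 to 0.422) in 35S::nahG LTMH, and EIL4 (−0.123 to 0.0458) and EIL2 (−0.0095 to 0.193) in 35S::asCCD7 LTMH. They were E8 (−0.216 to 0.867) and EBF1 (−0.0141 to 0.242) for the 35S::nahG response, and EIL4 (−0.066 to 0.0118) and EBF1 (−0.0646 to 0.0163) in CT and EIL2 (−0.0070 to 0.10) in LTMH for Never ripe against the other lines. Leaving out 35S::nahG LTMH replicate 2 gave the lowest E8 value in each of its 3 ranges.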
